A study of Mus musculus with 6 samples.

Results

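The SLC25 family comprises the mitochondrial solute carriers, and 43 of its mouse genes were examined here in dorsal skin after topical rebamipide. The genes were taken from the deposited expression table as every symbol of the form Slc25a followed by a number. Slc25a4, Slc25a5, Slc25a20 and Slc25a31 were left aside, because these ADP/ATP and acylcarnitine carriers belong to other pathways. This gave 43 of the 21959 genes in the table. The table held 6 RNA-seq libraries of skin from male C57BL/6 mice that had been shaved on the back in telogen, the resting phase of the hair cycle, at 7 weeks of age. Both groups were treated on the skin daily for 7 days. The vehicle group (n = 3) received 30% dipropylene glycol in 70% water, and the rebamipide group (n = 3) received 3% rebamipide, a gastroprotective quinolinone drug. The study's methods describe 3 mice per group and full-thickness skin, so a library can hold RNA of epidermis, hair follicle, dermis, fat and the muscle layer beneath.

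The inner mitochondrial membrane is impermeable to most metabolites, and SLC25 proteins carry them across it. They share a fold built from repeated pairs of membrane helices and usually exchange a solute on the matrix side for another on the cytosolic side. Individual members move citrate, malate, phosphate, amino acids, nucleotides, coenzymes, iron or glutathione, and a few members sit in peroxisomes or in the outer mitochondrial membrane. In skin, such carriers serve fat cells, muscle fibres, sebaceous glands and growing hair follicles, whose mitochondrial content differs widely.

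The libraries held 32709801 to 39915276 counts each. Transcripts encoded by mitochondrial DNA made up 2.59% to 5.36% of the counts in vehicle and 13.28% to 21.96% in rebamipide. The skin label was checked against keratin genes of the basal epidermis. Krt14 had 26099, 64371 and 59493 counts in vehicle 1 to 3, then 10954, 6102 and 0 in rebamipide 1 to 3. Krt5 had 4 counts in rebamipide 3 and at least 5368 in each other library. The library labelled rebamipide 3 therefore lacked the defining keratins of epidermis, and the calls, the role groups and the named carriers that were called are given with and without it. Krt71, a marker of the growing hair follicle, had 329678, 150336 and 3332 counts in vehicle 1 to 3, and 11284, 0 and 0 in rebamipide 1 to 3. The vehicle libraries thus differed widely in a marker of hair growth, although the mice were described as in telogen. Ucp1, the uncoupling protein of brown fat, had 0 counts in every vehicle library and 81048, 220449 and 150572 counts in rebamipide 1 to 3. Whether the tissue sampled differed between the groups cannot be told apart from an effect of the drug, and this holds for every difference below. In bulk tissue, fewer cells of a type and less RNA per cell cannot be told apart.

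The summed level of the 43 carriers was 1287.3, 1376.4 and 1524.3 normalized CPM (counts divided by the TMM-scaled size of the library) in vehicle 1 to 3. In rebamipide 1 to 3 it was 3070.3, 4606.4 and 4717.3 CPM. Every rebamipide library stood above every vehicle library, and rebamipide 1 was the lowest of its group. As a raw share that needs no scaling between libraries, the carriers took 16.44 to 18.43 of every 10000 counts in vehicle and 28.5 to 35.62 in rebamipide.

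Of the 43 carriers, 38 passed the filter on low counts. Slc25a2, Slc25a18, Slc25a21, Slc25a41 and Slc25a54 had 0 to 13 counts per library and were not tested. In edgeR's quasi-likelihood test with Benjamini-Hochberg adjustment over all 14875 genes tested, 15 carriers (39.5% of the 38) were higher in rebamipide and 1 (2.63%) was lower, at an adjusted p under 0.05. The background was 14.1% of all genes called higher and 6.51% called lower. The groups did not overlap for 20 carriers that were higher and 5 that were lower, against 24.5% and 24.0% of all genes tested. DESeq2 called 16 higher and 5 lower among 41 carriers, against 15.8% and 15.1% of the 16792 genes it gave a value. The median log2 fold change (rebamipide minus vehicle) of the 38 carriers was 0.80, and that of all genes tested was -0.17.

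The calls rested on particular libraries. Without rebamipide 3, 13 of the 15 remained called higher, with Slc25a1 and Slc25a17 lost, and 1 was called lower, against 6.6% and 2.49% of the 15327 genes tested in that fit. Their log2 fold changes ran from 1.29 to 4.51 over those 15 genes without it, against 1.37 to 4.93 with it. Without vehicle 2, edgeR called 0 carriers and 0 of all genes, with 16 carriers higher and 4 lower at an unadjusted p under 0.05 (15.6% and 11.9% of all genes). Without rebamipide 2 it called 0 carriers and 1 of all genes, with 15 carriers higher and 3 lower unadjusted (15.6% and 10.9% of all genes). DESeq2 called 16 higher and 4 lower without vehicle 2, against 16.3% and 13% of all genes. Without rebamipide 2 it called 14 higher and 3 lower, against 12.2% and 9.27%. Scaling by total counts alone moved the median of all genes to -0.78 and that of the carriers to 0.15, so the distance between these medians was 0.97 with TMM and 0.93 with total counts. The split of calls was then 13 higher and 6 lower, against 8.46% and 25.2% of all genes.

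**Figure D1:**
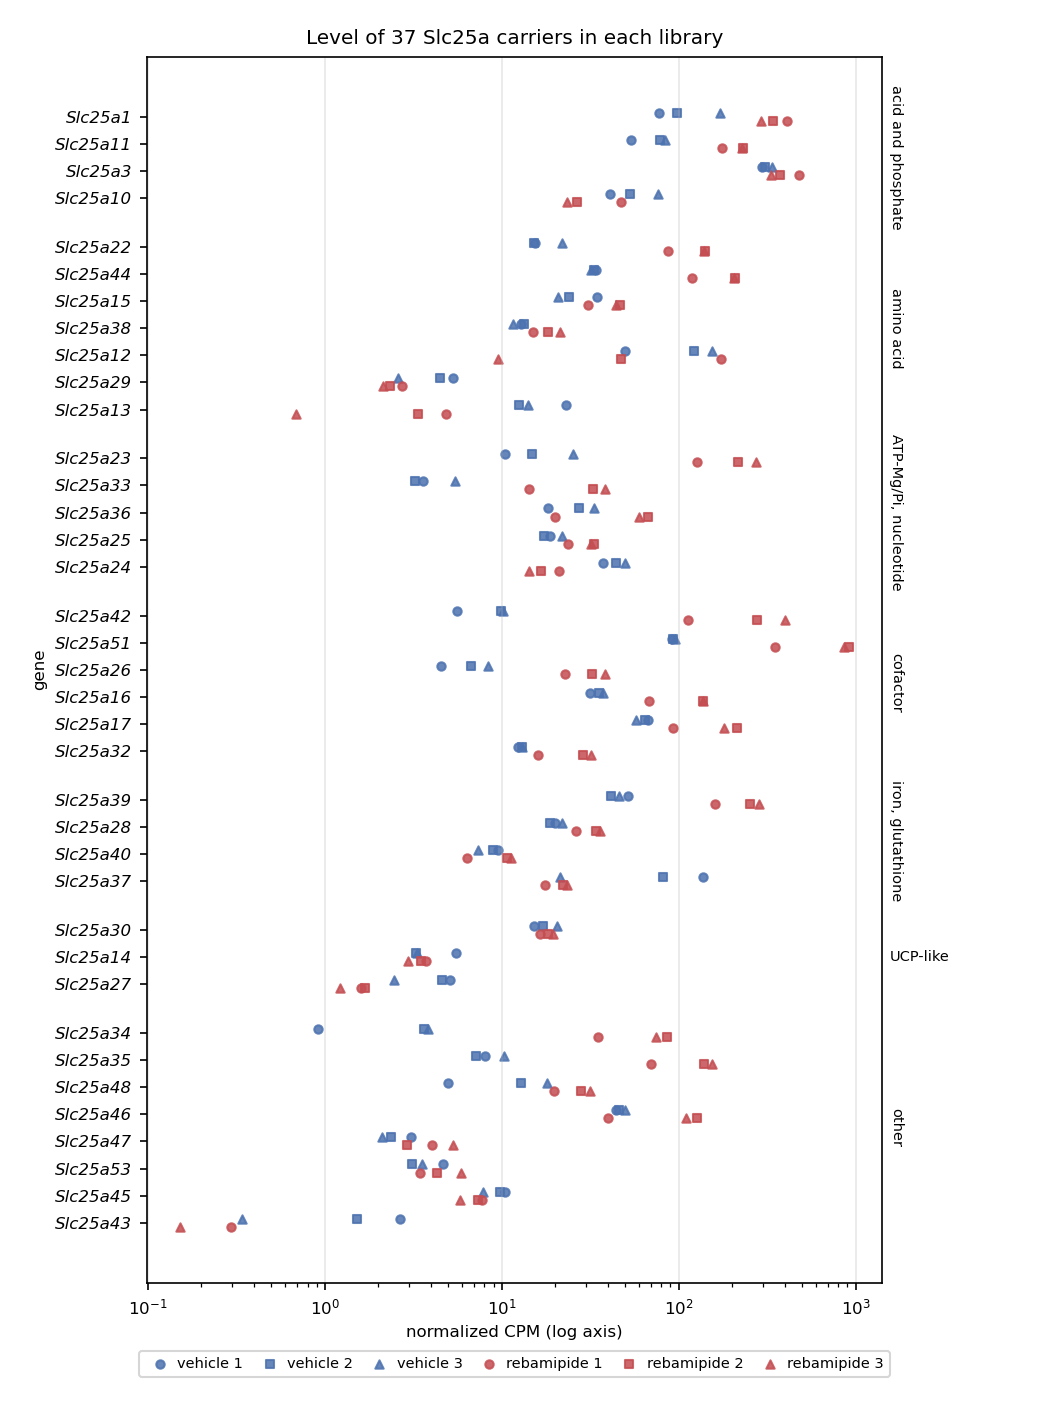
Normalized CPM (log axis) of 37 of the 38 carriers that passed the filter, by role, in vehicle 1 to 3 (blue) and rebamipide 1 to 3 (red). Slc25a42, Slc25a35 and Slc25a34 show wide gaps between the groups, Slc25a30 shows overlap, and the single value of 0 (Slc25a43 in rebamipide 2) is not drawn.

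Other genes of the same membrane were taken as a second background. The deposited annotation placed 479 further genes in the mitochondrial inner membrane, of which 444 were tested. Of these, 310 (69.8%) were higher, 4 (0.901%) were lower, and the median log2 fold change was 1.46. Without rebamipide 3, 216 of 445 (48.5%) were higher and 1 was lower, with a median of 1.37. With all libraries, 14 of the 38 carriers lay above the median of 1.46, all of them among the 15 called higher, with Slc25a17 the exception among those 15. These are counts, and the difference between the 2 gene groups was not tested.

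**Figure D2:**
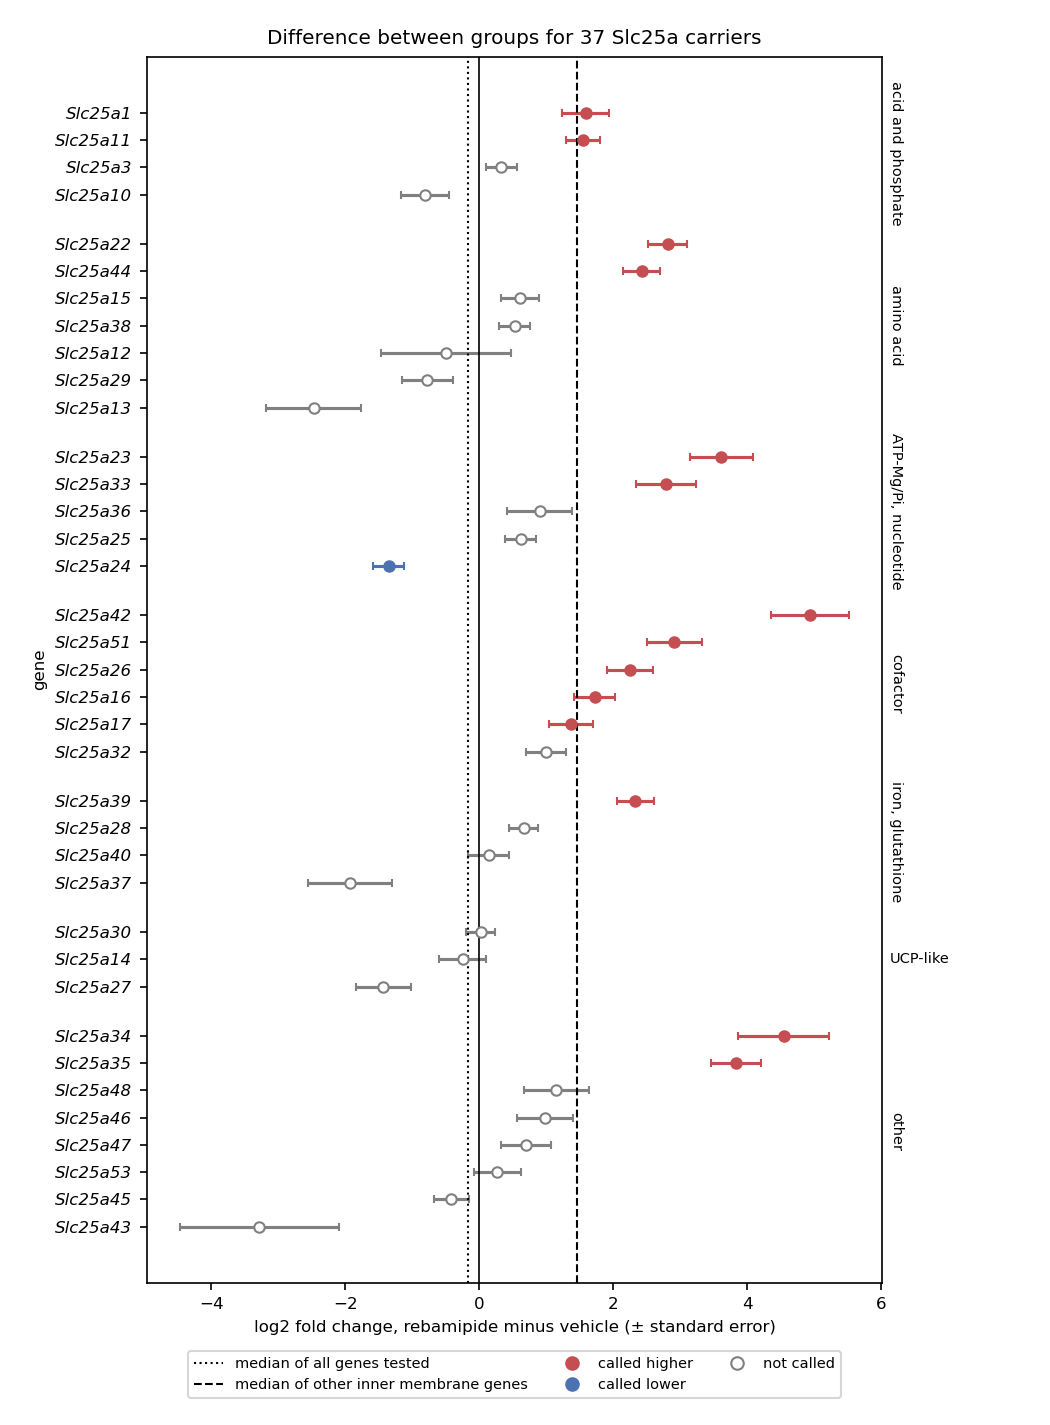
Log2 fold change with its standard error for 37 of the 38 tested carriers, rebamipide minus vehicle, grouped by role. The dotted line is the median of all genes tested (-0.17) and the dashed line that of other inner membrane genes (1.46), with 14 carriers called higher in red, 1 called lower in blue, and 22 not called as open circles.

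The carriers of coenzymes had the highest median log2 fold change of the role groups. Of the 7 in the table, 6 were called higher and 0 lower, their median log2 fold change was 2.25, and for all 7 the rebamipide libraries lay above the vehicle libraries without overlap. The backgrounds were 14.1% of all genes called higher and 24.5% higher without overlap. Without rebamipide 3, 5 of the 7 were called (median 2.09), against 6.6% of all genes. Summed, the 7 stood at 230.0 to 243.3 CPM in vehicle and at 906.5, 2059.3 and 2230.7 CPM in rebamipide 1 to 3.

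Slc25a42 imports coenzyme A into the matrix in exchange for adenine nucleotides, and its gene (ENSMUSG00000002346) spans chr8:70636990-70664955 on the minus strand in GRCm39. Its level was 5.61, 9.93 and 10.2 CPM in vehicle 1 to 3, and 112.7, 275.8 and 398.6 CPM in rebamipide 1 to 3. The groups were far apart, and rebamipide 1 was the lowest of its group. The log2 fold change was 4.93 ± 0.58 (SE; edgeR's quasi-likelihood test, adjusted p = 0.00939), and 4.51 without rebamipide 3. Slc25a51, the carrier of NAD+ (chr4:45395923-45408766), was almost constant in vehicle at 92.2, 93.0 and 96 CPM and reached 348.5, 913.8 and 858.7 CPM in rebamipide. It rose by 2.91 ± 0.41 (log2; edgeR adjusted p = 0.0107) and by 2.76 without rebamipide 3.

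The other coenzyme carriers described here had smaller log2 fold changes. Slc25a26 imports S-adenosylmethionine, the methyl donor for mitochondrial RNA and proteins. It rose from 4.53, 6.70 and 8.40 CPM to 22.9, 32.6 and 38.2 CPM (log2 fold change 2.25 ± 0.34, edgeR adjusted p = 0.0118; 2.09 without rebamipide 3). Slc25a16, a relative of Slc25a42 that has been linked to coenzyme A, stood at 31.4, 35.6 and 37.2 CPM in vehicle and at 68.5, 137.1 and 136.9 CPM in rebamipide. Its log2 fold change was 1.72 ± 0.31 (edgeR adjusted p = 0.0168), and 1.57 without rebamipide 3. Slc25a17 is the peroxisomal member and exchanges coenzyme A, FAD and NAD+. It was 67.3, 64.4 and 57.6 CPM in vehicle and 92.7, 214.6 and 181.1 CPM in rebamipide, a rise of 1.37 ± 0.33 (log2; edgeR adjusted p = 0.0362; 1.29 without rebamipide 3). Of the 6 fits that each left out a library, only the fit without rebamipide 1 kept that call. Slc25a32, the folate and FAD carrier, had a log2 fold change of 1.00 ± 0.30 that missed the threshold (edgeR adjusted p = 0.061), with 12.4 to 13 CPM in vehicle and 16.1 to 32.0 CPM in rebamipide.

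For orientation, the promoters of the carriers with the largest fitted rises (Slc25a42, Slc25a34) and of the only carrier called lower (Slc25a24) are given as RefSeq windows. Each runs from 250 bases before to 50 bases after the annotated start, on the gene's strand, in build GRCm38.p6, which is not the build of the expression table. The windows are chr8:70212232-70212531 on the minus strand for Slc25a42, chr4:141623785-141624084 on the minus strand for Slc25a34, and chr3:109122899-109123198 on the plus strand for Slc25a24. Capitals mark the half-site bound by estrogen-related receptors, AAGGTCA, which reads TGACCTT on the other strand and occurs in the second sequence alone.
Slc25a42: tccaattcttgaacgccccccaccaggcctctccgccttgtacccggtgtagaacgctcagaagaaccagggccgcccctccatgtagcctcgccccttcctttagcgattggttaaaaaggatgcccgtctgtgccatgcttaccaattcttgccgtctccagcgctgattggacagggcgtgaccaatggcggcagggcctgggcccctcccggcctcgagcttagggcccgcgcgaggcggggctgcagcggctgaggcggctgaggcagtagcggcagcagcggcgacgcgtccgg
Slc25a34: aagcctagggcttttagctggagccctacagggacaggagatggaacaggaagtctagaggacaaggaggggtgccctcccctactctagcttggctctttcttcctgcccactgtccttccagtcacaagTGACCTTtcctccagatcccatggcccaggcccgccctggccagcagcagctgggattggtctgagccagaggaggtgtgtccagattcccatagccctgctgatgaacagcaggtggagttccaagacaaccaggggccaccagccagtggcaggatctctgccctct
Slc25a24: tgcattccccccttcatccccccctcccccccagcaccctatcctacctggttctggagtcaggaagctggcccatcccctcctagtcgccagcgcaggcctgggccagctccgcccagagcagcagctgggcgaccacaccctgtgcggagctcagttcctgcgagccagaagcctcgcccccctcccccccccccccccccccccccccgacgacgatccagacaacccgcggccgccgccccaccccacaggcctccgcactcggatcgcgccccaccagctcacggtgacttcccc
Of the 43 carriers, 32 matched a RefSeq promoter, 10 of them among the 15 called higher. The half-site was in 4.72% of the 32851 promoters in the table, or in 5.38% of 27025 genes. Of these 32 carriers it was in Slc25a34 only, where it began 119 bases before the start. The letters TGACGTCA of the cyclic AMP response element were in 1.79% of promoters and 2.03% of genes. They were in a promoter of Slc25a25, though not in each of its promoters, and in that of Slc25a36. The letters GCATGCGC from the NRF-1 site were in 2.71% of promoters and 3.05% of genes, and in the promoter of Slc25a54. Both strands were searched, no motif overlapped another, and a match describes letters in this window only.

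Among the carriers of citrate, malate, phosphate and related acids, 2 of 4 tested rose and 0 fell (median log2 fold change 0.94), against 14.1% and 6.51% of all genes. Without rebamipide 3, Slc25a11 alone of the 4 was called. Slc25a1 exports citrate, the source of cytosolic acetyl-CoA for fatty acid synthesis, and lies at chr16:17743087-17746083. It stood at 77.8, 98.1 and 172.0 CPM in vehicle and at 412.0, 340.7 and 293.6 CPM in rebamipide, so that rebamipide 1 was here the highest of its group. Its log2 fold change was 1.59 ± 0.35 (edgeR adjusted p = 0.0291) with all libraries, and 1.71 without rebamipide 3 (adjusted p = 0.053 by edgeR). The call held in 2 of 6 fits with a library left out, those without vehicle 3 and without rebamipide 1. Slc25a11, the oxoglutarate/malate carrier of the malate-aspartate shuttle (chr11:70535022-70538305), rose from 53.7, 78.3 and 83.9 CPM to 175.2, 230.6 and 228.7 CPM. The change was 1.55 ± 0.25 on the log2 scale (edgeR adjusted p = 0.0134), with a value of 1.5 without rebamipide 3.

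The other carriers of this group were not called. Slc25a3, which supplies phosphate for ATP synthesis, stood at 296.4, 309.6 and 336.4 CPM in vehicle and at 477.0, 373.4 and 330.8 CPM in rebamipide. These ranges overlapped, and the log2 fold change of 0.33 ± 0.23 had an edgeR adjusted p of 0.315. With total counts as the scale its value was -0.27. Slc25a10, the dicarboxylate carrier, stood at 41.0, 53.2 and 76.5 CPM in vehicle and at 47.1, 26.7 and 23.4 CPM in rebamipide, with a log2 fold change of -0.81 ± 0.36 (edgeR adjusted p = 0.148). Its value in rebamipide 1 lay inside the vehicle range, and those in rebamipide 2 and 3 lay below it.

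Of the amino acid carriers, 7 were tested, 2 rose and 0 fell, against 14.1% and 6.51% of all genes, and the median log2 fold change was 0.53. Without rebamipide 3 the same 2 were called higher and Slc25a13 lower. Slc25a22 carries glutamate with a proton (chr7:141009657-141017805). It was at 15.4, 15.2 and 21.8 CPM in vehicle and at 86.6, 141.4 and 139.7 CPM in rebamipide, a rise of 2.81 ± 0.29 (log2; edgeR adjusted p = 0.00939; 2.71 without rebamipide 3). Slc25a44, the carrier of branched-chain amino acids known from brown fat (chr3:88317805-88332446), was near constant in vehicle at 34.0, 33.1 and 32.1 CPM and stood at 118.4, 208.1 and 204.9 CPM in rebamipide. Its log2 fold change was 2.42 ± 0.27 (edgeR adjusted p = 0.00939), and 2.31 without rebamipide 3. The other carriers of single amino acids were not called. Slc25a15, the ornithine carrier, and Slc25a38, the glycine carrier that serves heme synthesis, had log2 fold changes of 0.61 and 0.53. Slc25a29, for basic amino acids, had -0.78.

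The aspartate/glutamate carriers Slc25a12 and Slc25a13 drive the malate-aspartate shuttle, the former mainly in muscle and brain and the latter mainly in liver and epithelia. They are described here after their values were seen. Slc25a12 was 49.7, 122.0 and 153.7 CPM in vehicle and 174.1, 47.3 and 9.58 CPM in rebamipide, so its groups overlapped from end to end (log2 fold change -0.49 ± 0.97, edgeR adjusted p = 0.725). The summed level of 10 fast muscle markers was 5674.7, 23529.2 and 28076.2 CPM in vehicle and 36000.6, 7622.9 and 290.9 CPM in rebamipide, which is the same order of the 6 libraries except that vehicle 1 and rebamipide 2 change places. Slc25a13 was 23.0, 12.6 and 14.1 CPM in vehicle and 4.87, 3.39 and 0.687 CPM in rebamipide. The groups did not overlap, and the log2 fold change of -2.47 ± 0.71 missed the threshold (edgeR adjusted p = 0.0548). Without rebamipide 3 it was -1.99 and past the threshold (edgeR adjusted p = 0.0441). The 7 basal keratinocyte markers summed to 2512.7, 4053.3 and 3469.3 CPM in vehicle and to 1183.2, 724.5 and 144.3 CPM in rebamipide, where Krt14 was at 0 in rebamipide 3. The part of these cell types in the values of Slc25a12 and Slc25a13 was not tested.

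The carriers of ATP-Mg, phosphate and nucleotides moved in both directions: of 5 tested, 2 rose and 1 fell, against 14.1% and 6.51% of all genes, and the median log2 fold change was 0.90. Without rebamipide 3 the same 2 were called higher and 0 lower. Slc25a23 and Slc25a24 are calcium-regulated carriers that set the size of the matrix adenine nucleotide pool. Slc25a23 (chr17:57350711-57366863) stood at 10.4, 14.9 and 25.4 CPM in vehicle and at 127.7, 217.4 and 275.3 CPM in rebamipide, a rise of 3.61 ± 0.47 (log2; edgeR adjusted p = 0.00993; 3.36 without rebamipide 3). Slc25a24 (chr3:109030465-109075773) fell, from 37.5, 44.2 and 50 CPM in vehicle to 21.1, 16.6 and 14.2 CPM in rebamipide. Its log2 fold change was -1.35 ± 0.23 (edgeR adjusted p = 0.0158). The call held in 3 of the 6 fits that each left out a library and was lost without rebamipide 3 (log2 fold change -1.21, edgeR adjusted p = 0.051), as it was without vehicle 2 and without rebamipide 2. Fibroblast markers, summed over 7 genes, stood at 12310.1 to 18766.5 CPM in vehicle and at 15795.2, 3711.3 and 1971.7 CPM in rebamipide, and their part in this fall was not tested.

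Slc25a25, the third calcium-regulated carrier, was at 18.7, 17.4 and 22.0 CPM in vehicle and at 23.6, 33.3 and 32.2 CPM in rebamipide, with a log2 fold change of 0.62 ± 0.23 (edgeR adjusted p = 0.097). Slc25a33 and Slc25a36 carry pyrimidine nucleotides used for mitochondrial DNA and RNA. Slc25a33 (chr4:149828493-149858734) rose from 3.61, 3.25 and 5.45 CPM to 14.3, 32.9 and 38.2 CPM, by 2.79 ± 0.45 on the log2 scale (edgeR adjusted p = 0.0137; 2.53 without rebamipide 3). Slc25a36 was at 18.3, 27.3 and 33.3 CPM in vehicle and at 20.1, 67.1 and 59.8 CPM in rebamipide. There rebamipide 1 lay inside the vehicle range, and the log2 fold change of 0.90 ± 0.48 was not called (edgeR adjusted p = 0.212).

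Among the iron and glutathione carriers, 1 of 4 rose and 0 fell, against 14.1% and 6.51% of all genes, and the median log2 fold change was 0.40. That carrier, Slc25a39, was also the only call of the 4 without rebamipide 3. Slc25a39 brings glutathione into the matrix (chr11:102293811-102298772). It was at 51.8, 41.5 and 46.1 CPM in vehicle and at 160.5, 254.7 and 285.0 CPM in rebamipide, a rise of 2.33 ± 0.28 (log2; edgeR adjusted p = 0.00939; 2.17 without rebamipide 3). Its close relative Slc25a40 stood at 9.51, 8.93 and 7.33 CPM in vehicle and at 6.39, 10.7 and 11.3 CPM in rebamipide (log2 fold change 0.14 ± 0.31, edgeR adjusted p = 0.763). Slc25a28 and Slc25a37 are mitoferrins, which import iron for heme and iron-sulfur clusters, and the latter is the erythroid form. Slc25a28 was at 18.8 to 21.9 CPM in vehicle and at 26.2 to 36.1 CPM in rebamipide, with a log2 fold change of 0.66 ± 0.21 (edgeR adjusted p = 0.0675). Slc25a37 was at 137.9, 82.1 and 21.3 CPM in vehicle and at 17.5, 22.2 and 23.5 CPM in rebamipide. The spread within vehicle was the widest feature of this gene, and its log2 fold change of -1.93 ± 0.63 was not called (edgeR adjusted p = 0.0747). The 9 growing hair follicle markers summed to 16346.6, 7489.9 and 182.5 CPM in vehicle and to 889.5, 3.35 and 0.153 CPM in rebamipide. Red cell markers, by contrast, ran from 42.4 to 199.9 CPM in vehicle and from 345.5 to 808.6 CPM in rebamipide. The part of either cell type in the values of Slc25a37, which was singled out after its values were seen, was not tested.

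**Figure D3:**
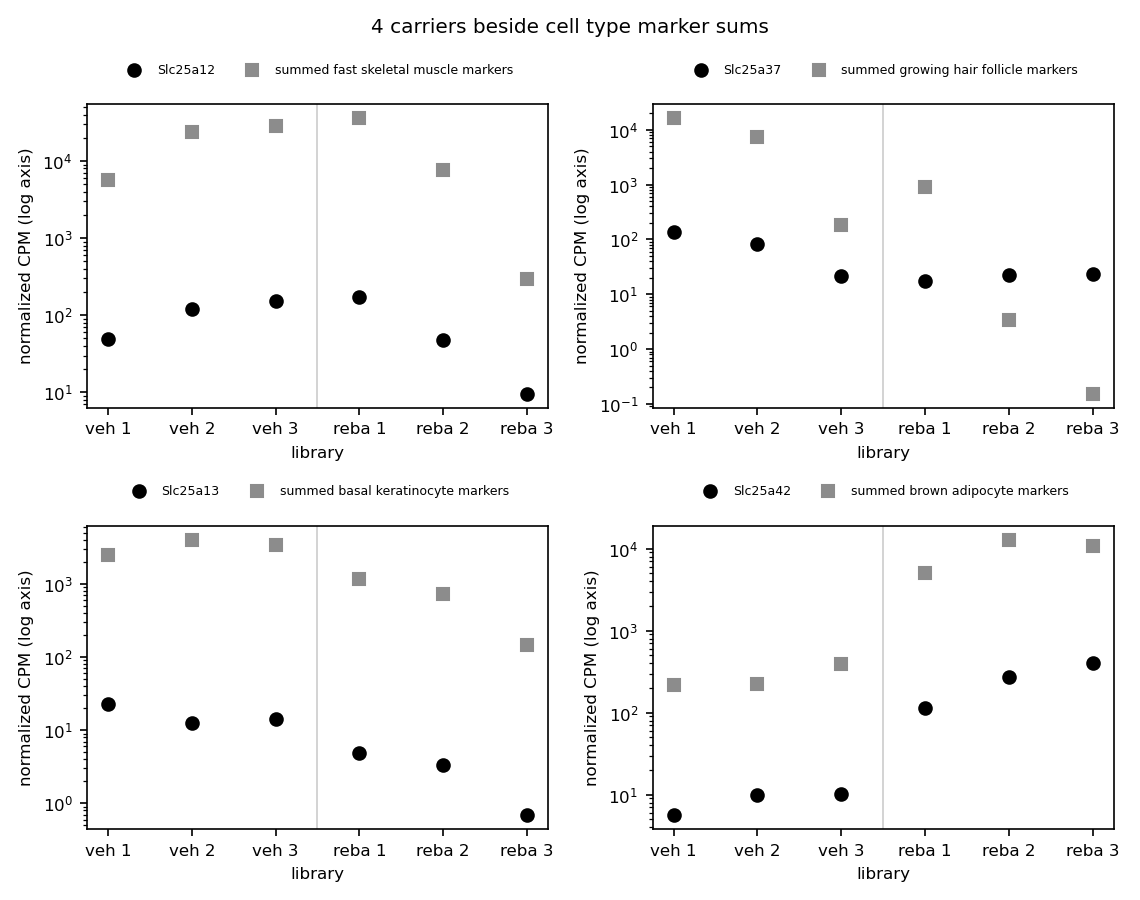
Normalized CPM (log axis) in each library for 4 carriers (circles) beside the summed CPM of a cell type's markers (squares), with vehicle left of the line and rebamipide right of it. Slc25a12 is at its lowest (9.58 CPM) where the fast muscle sum is lowest (290.9 CPM), Slc25a37 is highest (137.9 CPM) where the hair follicle sum is highest (16346.6 CPM), and Slc25a42 and the brown adipocyte sum are both higher in every rebamipide library.

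The carriers related to uncoupling proteins, Slc25a14, Slc25a27 and Slc25a30, gave 0 calls by edgeR. The backgrounds were the 14.1% of all genes called higher and 6.51% called lower. At an unadjusted edgeR p under 0.05, 1 of the 3 was lower and 0 were higher, against 18.8% and 20.9% of all genes, and DESeq2 gave the same counts against 15.1% and 15.8%. The median log2 fold change of the 3 was -0.25, and without rebamipide 3 it was -0.14, again with 0 calls by edgeR. Slc25a30 was at 15.3, 17.2 and 20.6 CPM in vehicle and at 16.5, 18.2 and 19.4 CPM in rebamipide (log2 fold change 0.02 ± 0.22, edgeR adjusted p = 0.941; -0.60 with total counts as the scale). Slc25a27 ran from 2.48 to 5.09 CPM in vehicle and from 1.22 to 1.68 CPM in rebamipide, with a log2 fold change of -1.43 ± 0.41 (edgeR adjusted p = 0.0538, and DESeq2 adjusted p = 0.00599). Slc25a14 had -0.25 ± 0.35.

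The 8 tested members of the outer membrane or of less settled function held 2 that rose and 0 that fell, against 14.1% and 6.51% of all genes, and their median log2 fold change was 0.84. The same 2 were called without rebamipide 3. Slc25a34 and Slc25a35 are closely related members whose substrates are not well established. Slc25a34 (chr4:141346135-141351132) stood at 0.921, 3.63 and 3.85 CPM in vehicle and at 35.0, 85.5 and 74.8 CPM in rebamipide, a rise of 4.54 ± 0.68 (log2; edgeR adjusted p = 0.0118; 4.43 without rebamipide 3). Slc25a35 (chr11:68858957-68865191) stood at 8.05, 7.19 and 10.3 CPM in vehicle and at 70.2, 140.1 and 154.0 CPM in rebamipide, a rise of 3.83 ± 0.37 (log2; edgeR adjusted p = 0.00939; 3.63 without rebamipide 3). In both, no rebamipide library came near the vehicle range.

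The other members of this group were not called. Slc25a46, an outer membrane protein tied to mitochondrial shape, was at 44.5 to 49.7 CPM in vehicle and at 39.9, 127.5 and 109.6 CPM in rebamipide, where rebamipide 1 fell below the vehicle range and the others above it (log2 fold change 0.98, edgeR adjusted p = 0.137). Slc25a48, linked to choline import, had 1.15 (edgeR adjusted p = 0.134). Slc25a43, at 0.342 to 2.66 CPM in vehicle and at most 0.296 CPM in rebamipide, had -3.28 ± 1.18 (edgeR adjusted p = 0.0927). Slc25a47, Slc25a53 and Slc25a45 had 0.70, 0.27 and -0.42.

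Several of these genes overlap another gene on the opposite strand, and whether the counting used strand is not given in the sources used here. Rangrf shares 1882 bases with Slc25a35 and was counted at 0.0674 ± 0.0638 CPM (SD) in vehicle and 0.23 ± 0.198 CPM in rebamipide. Crb3 shares 759 bases with Slc25a23 and was at 9.2 ± 1.9 CPM in vehicle and 1.69 ± 1.23 CPM in rebamipide, which is opposite in sign to Slc25a23. Rnf167 shares 245 bases with Slc25a11 (54.3 ± 7.11 and 80.1 ± 11.2 CPM), and Lrig1 shares 144 bases with Slc25a26 (91.5 ± 6.07 and 101.5 ± 3.37 CPM). Reads of such pairs cannot be told apart without strand.

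The make-up of the carrier pool was compared on a length-scaled level, CPM per kilobase of the gene length in the table. In vehicle, Slc25a3 was the most abundant carrier at 56.6 ± 3.67 CPM per kb (SD, n = 3), followed by Slc25a1 at 53.6 ± 22.9 CPM per kb and Slc25a11 at 34.0 ± 7.57 CPM per kb. Slc25a3 and Slc25a1 did not differ beyond their spread. In rebamipide, Slc25a1 came first by its mean, at 161.2 ± 27.6 CPM per kb. Slc25a51 had rank 2 at 128.3 ± 56.6 CPM per kb and Slc25a11 rank 4 at 99.7 ± 14.8 CPM per kb. Slc25a1 and Slc25a51 overlapped in their spread, and Slc25a1 exceeded Slc25a51 in rebamipide 1 alone. Slc25a3 had rank 6 there, at 70.9 ± 13.6 CPM per kb.

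As a share of the summed length-scaled level of the 43 carriers, which does not depend on scaling between libraries, Slc25a3 held 17.1%, 16.5% and 15.6% in vehicle and 10.5%, 5.70% and 4.98% in rebamipide. Slc25a51 held 4.47% to 5.35% in vehicle and 7.69%, 14.1% and 13% in rebamipide. For neither gene did the groups overlap. The share of Slc25a1 was 15.1% ± 4.70 (SD) in vehicle and 15.9% ± 6.33 in rebamipide, and that of Slc25a11 was 9.73% ± 1.46 and 9.43% ± 0.55, so both differed by less than the spread between libraries. Slc25a42 went from 0.409% ± 0.0987 to 3.91% ± 1.63, and from rank 31 to rank 9. Over rebamipide 1 and 2 alone, the mean shares were 8.08% for Slc25a3, 10.9% for Slc25a51, 18.3% for Slc25a1, 9.63% for Slc25a11 and 3.09% for Slc25a42.

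**Figure D4:**
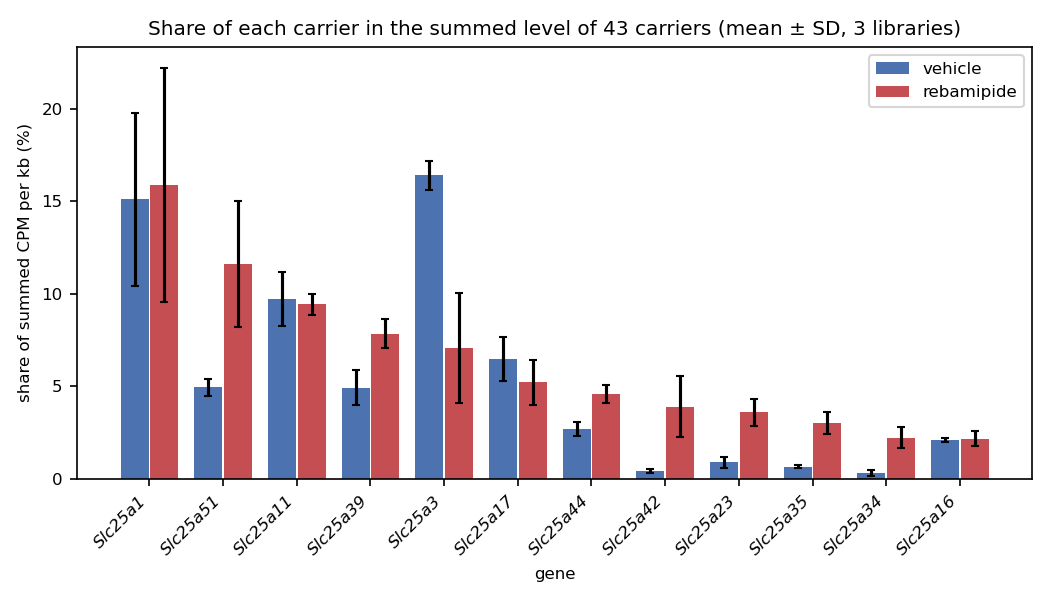
Share of each carrier in the summed CPM per kb of the 43 carriers (mean ± SD of 3 libraries) in vehicle (blue) and rebamipide (red), for 12 of the carriers with the highest rebamipide level. Slc25a3 goes from 16.4% to 7.05% and Slc25a51 from 4.94% to 11.6%, while Slc25a1 stays at 15.1% and 15.9%.

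Related carriers were also compared within each library, as the log2 ratio of their length-scaled counts. An exact permutation test of 3 against 3 libraries cannot go below p = 0.1, so none of the 10 pairs could pass, and the 8 pairs whose groups did not overlap had that smallest p (two-sided exact test; adjusted p = 0.125 over the 10 pairs). The largest difference was in Slc25a16 over Slc25a42, at 2.80, 2.16 and 2.18 in vehicle and -0.40, -0.69 and -1.22 in rebamipide. Slc25a16 was thus the more abundant of that pair in vehicle, and Slc25a42 in rebamipide. Slc25a23 over Slc25a25 went from -0.28, 0.35 and 0.78 to 3.01, 3.28 and 3.66, and Slc25a24 over Slc25a25 from 2.20, 2.54 and 2.38 to 1.03, 0.19 and 0.01. The most abundant of the 3 calcium-regulated carriers was therefore Slc25a24 in vehicle and Slc25a23 in rebamipide.

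The ratio of Slc25a39 over Slc25a40 was tight in both groups, at 4.05, 3.82 and 4.26 in vehicle and 6.25, 6.18 and 6.26 in rebamipide, a difference of 2.19. Slc25a10 over Slc25a11 differed by -2.40, Slc25a28 over Slc25a37 by 2.23, Slc25a33 over Slc25a36 by 1.95 and Slc25a12 over Slc25a13 by 1.63. The ratios of Slc25a34 over Slc25a35 (difference 0.92, exact p = 0.3) and of Slc25a14 over Slc25a30 (difference -0.24, exact p = 0.7) overlapped between the groups. Some differences rested on vehicle 1, without which Slc25a12 over Slc25a13 differed by 0.88, Slc25a34 over Slc25a35 by 0.28 and Slc25a14 over Slc25a30 by 0.10. Slc25a28 over Slc25a37 ran from 1.65 without vehicle 1 to 3.06 without vehicle 3. Without rebamipide 3 the differences of the 10 pairs kept their sign, at -2.93 for Slc25a16 over Slc25a42, 2.86 for Slc25a23 over Slc25a25 and 2.18 for Slc25a39 over Slc25a40.

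**Figure D5:**
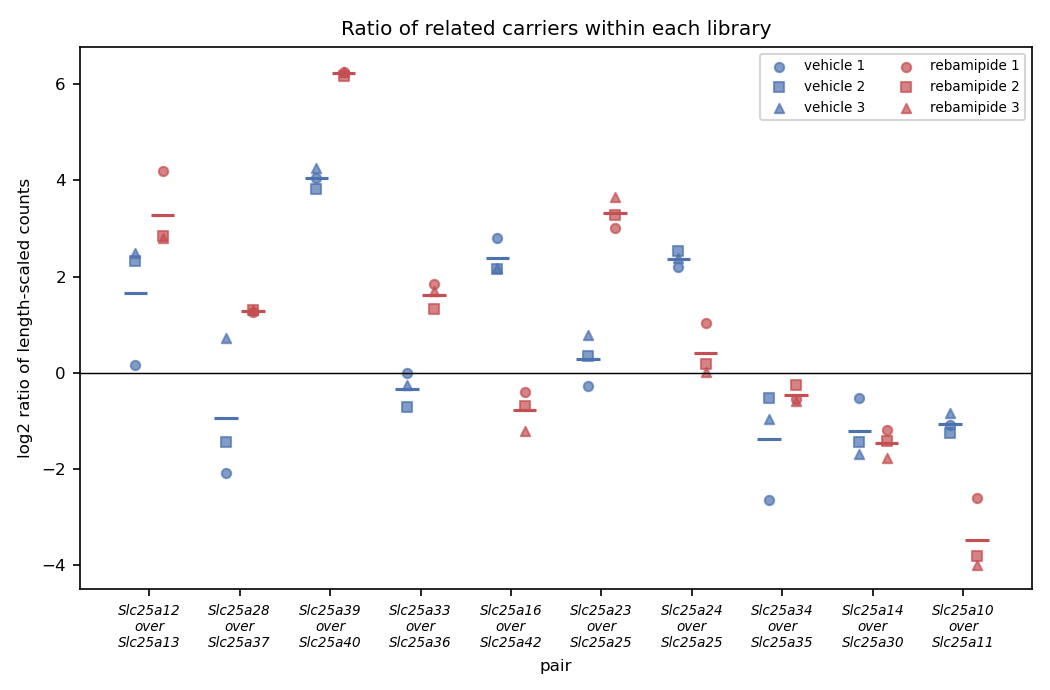
Log2 ratio of length-scaled counts of related carriers within each library, for 10 pairs, with vehicle in blue, rebamipide in red and bars at the group means. Slc25a16 over Slc25a42 lies above 0 in every vehicle library and below 0 in every rebamipide library, and Slc25a14 over Slc25a30 overlaps.

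Brown adipocyte and adipocyte markers moved with the carriers that rose. The 8 brown adipocyte markers summed to 217.1, 225.6 and 390.7 CPM in vehicle and to 5036.8, 12912.3 and 10663.4 CPM in rebamipide. Of these 8, 6 were called higher (5 without rebamipide 3) and 0 lower, and Ucp1 was at 0 in all vehicle libraries. The other 2 were Zic1, with a log2 fold change of 0.09, and Elovl3, which was lower in each rebamipide library (log2 fold change -1.45, edgeR adjusted p = 0.0575, DESeq2 adjusted p = 0.0121). The 10 adipocyte markers summed to 1669.8 to 4972.9 CPM in vehicle and to 12613.1 to 22447.8 CPM in rebamipide, with 7 called higher (5 without rebamipide 3), against 14.1% of all genes (6.6% without it). The 3 markers not called, Lep, Retn and Cfd, had log2 fold changes of -0.53, -0.23 and 0.34. Endothelial markers had 4 of 8 called higher (3 without rebamipide 3), at 263.6 to 615.0 CPM in vehicle and 1166.9 to 1636.5 CPM in rebamipide, while Vwf, not called, had a log2 fold change of -0.19. Slow muscle markers had 4 of 6 called higher, at 2.07 to 13.5 CPM in vehicle and 290.1, 129.3 and 7.02 CPM in rebamipide. The fast muscle, leukocyte, fibroblast, sebaceous, growing hair follicle and both keratinocyte lists, 55 genes in all, had 0 calls by edgeR. At an unadjusted edgeR p under 0.05, 1 gene was higher and 7 were lower, against 20.9% and 18.8% of all genes. DESeq2 called 1 higher and 6 lower, against 15.8% and 15.1% of all genes. Median log2 fold changes were -2.50 for basal and -2.26 for suprabasal keratinocyte, -4.71 for hair follicle and -1.83 for sebaceous markers. Of the 7 basal keratinocyte markers, 6 were lower without overlap, against 24.0% of all genes. Without rebamipide 3, edgeR called Trp63, Ivl and Dsg1a of the keratinocyte lists lower, against 2.49% of all genes. The part of these cell types in the carriers' rises was not tested.

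The enzymes and proteins that work with these carriers were counted in lists, to be read against the 14.1% of all genes called higher and 6.51% called lower. Of the 8 family proteins outside the 43 that were tested, 5 rose (4 without rebamipide 3) and 0 fell. Slc25a20, the carnitine/acylcarnitine carrier that admits long-chain fatty acids, rose from 53.0 ± 8.65 to 910.3 ± 339.5 CPM (log2 fold change 4.10), and Ucp3 from 19.4 ± 11 to 275.6 ± 88.1 CPM (3.83). Slc25a4 and Slc25a5, the ADP/ATP carriers, were not called, with log2 fold changes of 0.36 and 0.61, and Ucp2 was not called at -1.45 (edgeR adjusted p = 0.0767). Among 22 other inner membrane transport proteins, 10 rose (7 without rebamipide 3) and 0 fell, with a median log2 fold change of 1.10, against 0.80 for the carriers. Those with the smallest p were Sfxn5 (4.28), a sideroflexin, Abcb8 (2.08), a half-transporter of the ABC family, and Letm1 (2.20), an ion exchanger.

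The malate-aspartate shuttle joins Slc25a11, Slc25a12 and Slc25a13 to malate dehydrogenases and aminotransferases. The dehydrogenases Mdh1 (log2 fold change 1.86) and Mdh2 (2.26) were called higher, and the aminotransferases Got1 (0.00) and Got2 (-0.25) were not called. Gpd1 (4.37) and Gpd2 (4.51), of the glycerophosphate shuttle, which uses none of these carriers, completed the list and were called higher. These calls were the same without rebamipide 3. Of 8 enzymes of citrate and glutamate, 4 rose (4 also without rebamipide 3) and 0 fell, among them Ogdh (3.43) and Idh2 (2.65). Heme and iron-sulfur enzymes, which use the cargo of the glycine carrier and the mitoferrins, had 11 of 13 called higher (5 without rebamipide 3) and 0 lower (median 1.34). Alas1 (2.36), Iscu (2.07) and Glrx5 (1.40) had the smallest p. Alas2, among the 11, was also in the red cell list, which had 3 of 5 called higher (0 without rebamipide 3).

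Of 14 enzymes that make or use the coenzymes of these carriers, 3 were called higher (21.4%, against 14.1% of all genes) and 0 lower, and their median was 0.31. The same 3 were called without rebamipide 3. The 3 were Pank1 (2.95) and Coasy (2.19), which make coenzyme A, and Flad1 (1.55), which makes FAD. The enzymes of branched-chain and urea-type amino acids had 4 of 10 called higher and 1 lower, and 3 higher and 0 lower without rebamipide 3. The 4 were Bckdha (3.13), Bckdhb (2.86), Bckdk (1.42) and Dbt (1.64), all parts or regulators of the branched-chain keto acid dehydrogenase that acts downstream of Slc25a44. The 1 lower was Gcat (-1.98), a mitochondrial enzyme of threonine and glycine metabolism.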

How the data were processed

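Skin RNA from 6 mice (3 per group) was sequenced by the authors as poly-A libraries. The submitters' processing notes name fastp 0.22.0, HISAT2 2.1.0, HTSeq 0.9.1 and GRCm39. The annotation release and strand setting are not given in the sources used here. The deposited table, as its headers say, holds raw read counts per gene, and beside them FPKM values that the authors derived from those counts, with a gene length in bases. Only counts entered the main tests.

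Counts were scaled by TMM (edgeR 4.0.16, R 4.3.3), filtered with filterByExpr and tested with the quasi-likelihood test, with the Benjamini-Hochberg adjustment over all genes. A call means an adjusted p under 0.05. The standard error was the log2 fold change over the square root of F. Depth of at least 32709801 counts per library left counting error small beside the spread between mice, (chi-square per degree of freedom 83.1 to 742.3 between libraries of a group), and p-values measure that spread. Alternatives used limma 3.58.1, DESeq2 1.42.0, other scalings and filters, log2(FPKM + 1), a replicate block, and libraries left out in turn (with limma-voom, chosen after seeing the data). Pair ratios added 0.5 counts and were tested by exact permutation. The fits were also run on simulated counts with equal spread for all genes and balanced rises and falls, a simpler setting than these libraries.

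Values were given in full for the 8 largest rises with at least 50 mean counts and groups that do not overlap, for carriers called lower, for the 4 highest length-scaled levels and for pairs with a called gene, and for other carriers where stated or needed to complete a role. The members and lists were chosen with earlier results of these data known. Of related genes, up to 3 per list with the smallest p were named, and a few more where a count was small. Single genes that the rule names but that are withheld are not reported here.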

Additional observations from a re-analysis of the deposited data

How the results depend on the processing

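Of 522 values of 18 carriers under the alternatives, 448 kept their direction and side of the threshold, 53 kept direction but lost their call, 10 gained one and 11 reversed. The reversed values were those of carriers not called: Slc25a3 was -0.27 with total counts and -0.30 on log2(FPKM + 1), Slc25a25 was -0.02 and -0.01, and Slc25a40 was -0.52 and -0.27, with -0.06 beside a fast muscle score, -0.00 to 0.36 with 1 library left out by edgeR, and -0.01, -0.02 and -0.06 in limma-voom fits without 1 library. The Slc25a14 over Slc25a30 ratio was 0.10 without vehicle 1 and down to -0.47 with another library left out.

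The count of carriers called higher (15) ran, with each library left out in turn, from 0 to 20 by edgeR, 6 to 20 by limma-voom and 14 to 22 by DESeq2. The share of all genes called higher in these fits ran from 0% to 18.3%, 1.4% to 18.1% and 12.2% to 21.5%. The count of 0 carriers arose without vehicle 2 or rebamipide 2, where the smallest edgeR adjusted p of a carrier was 0.0747 and 0.0573. The count called lower (1) was 6 with total counts and on log2(FPKM + 1), against 25.2% and 32.3% of all genes. It was 5 by DESeq2, against 15.1%, and 5 at an unadjusted edgeR p under 0.05 with a log2 fold change beyond 1. With at least 10 counts in every library it was 4, against 11.9%. It was 2 with upper quartile scaling, limma-voom or a fast muscle score, against 7.93%, 6.94% and 6.86%. With libraries left out it ran from 0 to 3 by edgeR, 0 to 4 by limma-voom and 3 to 7 by DESeq2. Those fits called lower 0% to 12.8%, 0.0468% to 9.16% and 9.27% to 25.2% of all genes. The median (0.80) was 0.15 with total counts and 0.08 on log2(FPKM + 1), on which the median of all genes was -0.46. The cause of these shifts was not tested.

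The deviations of same-numbered vehicle and rebamipide libraries had correlations of -0.016, -0.038 and 0.003. These values rest on 3 libraries per group, and whether the replicate numbers pair the samples was not tested. With the replicate block, 13 carriers were higher and 0 lower, against 9.63% and 5.75% of all genes. Slc25a1 and Slc25a17 were lost on the higher side and Slc25a24 on the lower. No vehicle library correlated best with its own number.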
